A study of Drosophila melanogaster with 3 samples.

Results

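Cytochrome P450 genes of Drosophila melanogaster were examined for binding of Vrille, a transcription factor of the bZIP class that represses genes of the circadian clock. Members were the protein-coding genes of the Ensembl annotation whose symbol is Cyp followed by a digit, except Cyp18a1. That rule took 84 of 13945 protein-coding genes on 6 chromosome arms. The RefSeq product names of 2 of these, Cyp1 and Cyp40, are cyclophilin 1 and cyclophilin 40, which are peptidyl-prolyl isomerases and not P450 enzymes. The 82 genes that RefSeq names as cytochrome P450 are therefore described here, and the count for the full 84 is given once beside theirs. The measurements came from chromatin immunoprecipitation and sequencing with an antibody against GFP, in whole white prepupae of a transgenic line in which the vri protein carries GFP at its C terminus. The 3 biological replicates were of males and females pooled, formed 1 group, and had an age given as unknown. No library from animals without the tagged protein was analysed here, so values are set against all other genes and not against a control group, and no test between groups was made. Whole animals mix tissues, so a peak does not say in which cells the protein sat.

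P450 enzymes are haem monooxygenases that insert an oxygen atom into steroids, fatty acids, plant toxins and insecticides. In insects most sit in the endoplasmic reticulum and take electrons from cytochrome P450 reductase. A smaller group sits in mitochondria and takes them from ferredoxin. Insect families fall into clan 2, clan 3, clan 4 and the mitochondrial clan. Clan 3 holds the Cyp6 and Cyp9 families, known for detoxification, and clan 4 holds the Cyp4 family, whose members act on fatty acids and hydrocarbons as well as on foreign compounds. Many Drosophila members stand in tandem clusters that arose by duplication.

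A gene was called bound when the summit of an optimal peak lay within 1 kb of one of its annotated start sites. Optimal peaks are the 9264 entries of the authors' list that passed their irreproducible discovery rate step. Of the 82 P450 genes, 22 were bound (26.8%), and with the cyclophilin genes 23 of 84 (27.4%). Among all protein-coding genes 27.5% were bound, so the share of P450 genes as a whole was near the background. Taking in place of the optimal list the 9264 highest entries of each replicate, 23, 25 and 23 of the 82 P450 genes had a summit within 1 kb in replicates 1, 2 and 3. The same count over all genes gave 29.8%, 27.4% and 28%. The P450 share was 28.9% ± 1.41 over these lists (SD, n = 3). The median P450 gene was 2098 bp long, against 2166 bp for all protein-coding genes. A single annotated start site was found in 70 of the 82, against 10246 of the 13945 protein-coding genes. Genes with more start sites have more windows in which a summit can fall.

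The families differed more than the total. Of 19 families, 7 held a bound gene. All 6 members of the Cyp9 family were bound, 7 of 23 in Cyp6 (30.4%), 4 of 22 in Cyp4 (18.2%) and 2 of 7 in Cyp12 (28.6%). With the stronger 50% of optimal peaks 1 of 6 Cyp9 genes was bound (16.7%), against 18.2% of all genes. None of the 4 Cyp28 genes and none of the 6 Cyp313 genes was bound. The 13 families with fewer than 4 members held 14 genes, of which Cyp309a1, Cyp310a1 and Cyp317a1 were bound. In the highest entries of replicates 1, 2 and 3, Cyp9 had 5, 5 and 6 genes with a summit, Cyp6 had 8, 8 and 7, Cyp4 had 4, 6 and 4, and Cyp12 had 3 in each. Cyp28 had 0, 1 and 0, and Cyp313 had 0 in each. Among these 6 families Cyp9 had the highest share, and Cyp28 and Cyp313 the lowest, in the optimal list and in every replicate. Cyp6 and Cyp12 changed places: the share of Cyp6 was above that of Cyp12 in the optimal list and below it in each replicate's own entries. These families are small, and the genes of a family are not replicates of one another.

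**Figure D1:**
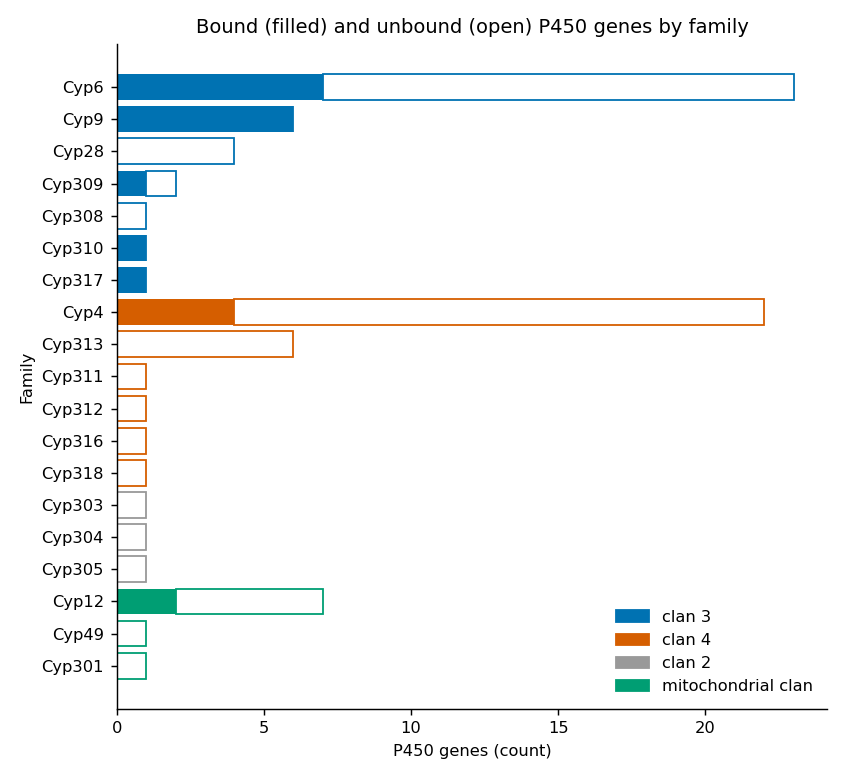
Number of P450 genes in each of the 19 families, with bound genes as filled bars and unbound genes as open bars, coloured by clan. Cyp9 is filled throughout, with 6 of 6 genes, and Cyp313 is open throughout, with 0 of 6.

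The clans were counted only over genes within the symbol rule. Grouped by clan, 16 of 38 clan 3 genes were bound (42.1%), against 4 of 32 clan 4 genes (12.5%), 0 of 3 clan 2 genes and 2 of 9 mitochondrial genes (22.2%). Clan 3 had 16 genes in each replicate's highest entries. Clan 4 had 4, 6 and 4, and the mitochondrial clan 3, 3 and 3. The range of clan 3 over replicates did not overlap that of clan 4, and all genes gave 29.8%, 27.4% and 28%. The 16 clan 3 genes were not the same in each replicate. In all 3 replicates a summit was found for 12 of 38 clan 3 genes (31.6%) and 4 of 32 clan 4 genes (12.5%), against 22.2% of all genes. With the stronger 50% of optimal peaks 7 of 38 clan 3 genes were bound (18.4%), against 18.2% of all genes. Without the Cyp9 family, 10 of 32 clan 3 genes were bound (31.3%), close to the background of all genes. Arm and clan were linked, since 22 of the 38 clan 3 genes but 7 of the 32 clan 4 genes lie on 2R, and 9 clan 4 genes lie on X. Within 2R, 11 of 22 clan 3 genes and 2 of 7 clan 4 genes were bound, and on the other arms 5 of 16 and 2 of 25. The same direction held inside and outside that arm. Of all genes on 2R 29.1% were bound, and on the other large arms between 25.4% and 28.5%.

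Set against compartment, 2 of 9 mitochondrial members and 20 of 73 microsomal members were bound (22.2% and 27.4%). The mitochondrial P450 genes dib, sad and shd have other symbols and lie outside these counts. Of them only shd was bound, as given below. With each replicate's own highest entries the mitochondrial count was 3, 3 and 3 of 9 and the microsomal count 20, 22 and 20 of 73, so the order of the shares turned round. With 9 mitochondrial genes, 1 gene moves their share by more than the gap between the compartments. 

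**Figure D2:**
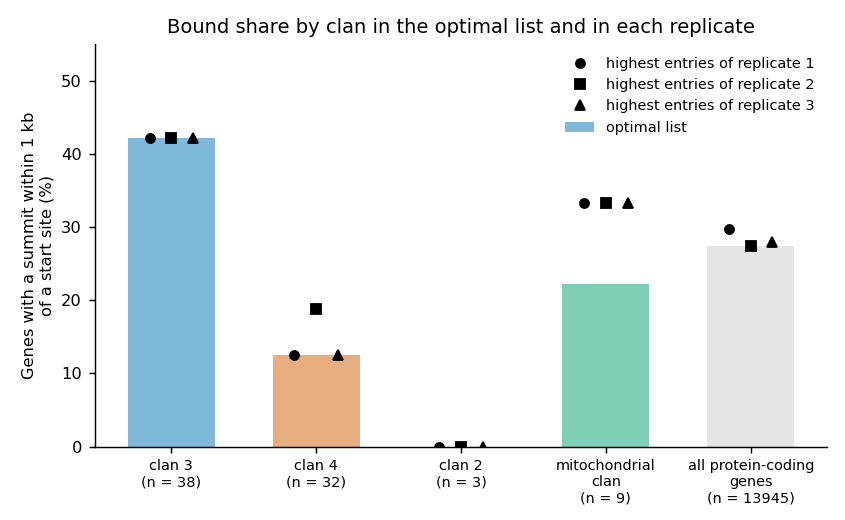
Share of genes with a summit within 1 kb of a start site, by clan and for all 13945 protein-coding genes. Bars give the optimal list and symbols the 9264 highest entries of each replicate. Clan 3 lies at 42.1% in every list, above clan 4 and above all genes, though not with the same genes in each list.

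Other detoxification gene families gave a scale for these shares. Glutathione transferases, which conjugate the products of P450 enzymes, had 18 of 35 genes bound (51.4%), and UDP-glycosyltransferases, which act at the same step, 14 of 35 (40.0%). The replicates' own entries gave 20, 18 and 22 glutathione transferases and 13, 11 and 10 UDP-glycosyltransferases. The P450 share of 26.8% was below both, and all protein-coding genes gave 27.5%. In the optimal list the share of clan 3 stood near that of the UDP-glycosyltransferases. In the replicates' own entries clan 3 stayed at 42.1%, while the UDP-glycosyltransferases gave 37.1%, 31.4% and 28.6%. All genes gave 29.8%, 27.4% and 28% there, so the UDP-glycosyltransferases came near the background in replicate 3. Members of these families are also clustered, and neighbours can share a summit.

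The sequences at the summits show the bases over which the signal was highest. Each run is 101 bases centred on the summit of the highest peak of a bound gene, 5′ to 3′ on the strand of the gene, in dm6, from the RefSeq assembly. Shown are the peak second in signal among P450 genes (Cyp310a1), the peak with the smallest spread between replicates (Cyp4ac1), 1 peak over a TATA box at a start site (Cyp6d5), the neighbouring mitochondrial pair (Cyp12a5, Cyp12a4) and an intronic peak (Cyp9f2). Capitals mark matches, on either strand, to the TATA box word TATAAA or the GATA factor word AGATAA.
Cyp310a1, chr2L:18653453-18653553, strand -: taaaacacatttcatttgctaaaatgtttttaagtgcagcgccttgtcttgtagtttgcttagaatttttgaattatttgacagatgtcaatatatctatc
Cyp4ac1, chr2L:5263925-5264025, strand +: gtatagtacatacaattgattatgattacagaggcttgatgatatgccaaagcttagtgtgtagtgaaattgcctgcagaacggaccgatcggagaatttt
Cyp6d5, chr3R:14029149-14029249, strand +: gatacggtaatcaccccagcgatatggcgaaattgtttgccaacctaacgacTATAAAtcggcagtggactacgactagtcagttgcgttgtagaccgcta
Cyp12a5, chr3R:19132029-19132129, strand +: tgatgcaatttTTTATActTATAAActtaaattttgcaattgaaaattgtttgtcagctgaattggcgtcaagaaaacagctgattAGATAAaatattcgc
Cyp12a4, chr3R:19135074-19135174, strand +: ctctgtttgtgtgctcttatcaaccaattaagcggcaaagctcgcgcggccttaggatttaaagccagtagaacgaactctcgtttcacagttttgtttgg
Cyp9f2, chr3R:12405220-12405320, strand -: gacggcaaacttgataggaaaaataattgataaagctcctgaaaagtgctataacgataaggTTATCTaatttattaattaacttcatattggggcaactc
Cyp310a1, Cyp4ac1 and Cyp12a4 held none of the words searched. The TATA box in the Cyp6d5 run lies 27 bp upstream of the annotated start, where such boxes usually stand. In Cyp12a5 the words lie far from the start, in a stretch with a GC content of 27.7%.

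No P450 summit held the word bound by Vrille and the related activator PDP1, TTATGTAA or TTACGTAA. That was 0 of 22 windows of 101 bases, against 2.07% of the 4552 optimal summits within 1 kb of any start site. Words of the related C/EBP factors (TTACGTAA, TTGCGTAA, TTACGCAA or TTGCGCAA, the first shared with the Vrille set) were in 0 of 22, against 1.54%. The antioxidant response element of the xenobiotic regulator CncC, TGACNNNGC, was in 0 of 22, against 2.55%. At shares this low, a count of 0 among 22 windows does not set P450 summits apart. AGATAA was in 5 of 22 windows (22.7%), against 8.41%, at Cyp4p1, Cyp6g1, Cyp12a5, Cyp309a1 and Cyp9f2. TATAAA was also in 5 of 22 (22.7%), against 12.2%, at Cyp6a22, Cyp6d5, Cyp12a5, Cyp9b1 and Cyp6a23. The median GC content was 41.1% in P450 windows and 42.6% in the windows of all promoter summits.

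Across the promoter itself, from 250 bp upstream to 50 bp downstream of a start site, TATAAA was in 17 of 22 bound and 31 of 60 unbound P450 genes (77.3% and 51.7%). All genes held it in 51.2% and all bound genes in 53.1% of cases. AGATAA was in 9 of 22 bound and 19 of 60 unbound P450 genes (40.9% and 31.7%), against 22.8% of all genes and 28.2% of all bound genes. The Vrille word was in the promoters of 0 of 22 bound P450 genes and of 2 unbound ones, Cyp4ac2 and Cyp6a20. Among all genes it was in 3.31%, and among all bound genes in 4.23%. The CncC element was in 0 of 22 bound P450 genes and 5 of 60 unbound ones, against 11.2% of all genes and 13.9% of all bound genes. One of the 5 was Cyp6a8, a gene known to be induced by caffeine and by phenobarbital. A match to a word is not evidence of a site in use, and no match says only that those letters are not in the window.

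P450 summits were near start sites and mostly upstream. The highest summit of a bound P450 gene lay upstream of its nearest start site in 19 of 22 genes, against 67.2% of all bound genes. Its median position was 84.5 bp upstream, 10 of 22 lay within 100 bp, against 32.2% of all bound genes, and 17 lay within 500 bp. Of the 22 summits, 18 were outside the gene, 3 in an intron and 1 in an untranslated exon. Only 3 bound P450 genes shared their highest summit with another protein-coding gene, against 48.5% of all bound genes. These were Cyp6u1 with Ufsp1, Cyp6a22 with Pcf11 and Cyp9h1 with the odorant receptor gene Or49b. The 22 genes thus rested on 22 different peaks, and 27 optimal summits in all lay within 1 kb of a P450 start site.

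**Figure D3:**
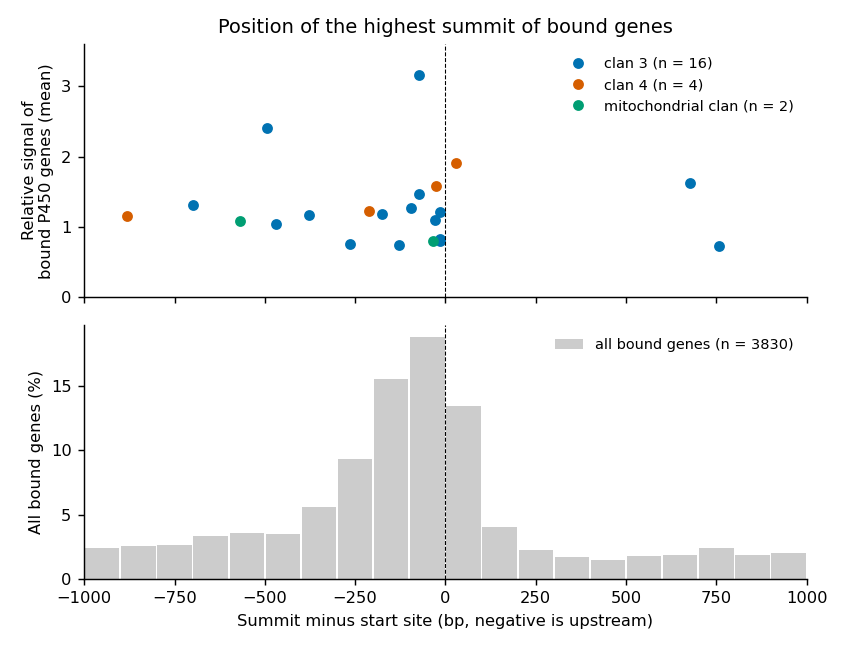
Position of the highest summit within 1 kb of a start site. The upper panel gives each of the 22 bound P450 genes by position and mean relative signal, coloured by clan, and the lower panel the share of all 3830 bound genes in bins of 100 bp. In both panels most summits lie upstream within 500 bp.

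The signal of a peak in a replicate is the authors' signal value of the replicate's highest entry that overlaps it. It was divided by the median of all entries of that replicate that overlap an optimal peak. A relative signal of 1 is that median, and not the signal of the median optimal peak. Over the 22 bound P450 genes the mean relative signal ran between 0.736 and 3.17, with a median of 1.18. In the pooled list, signals were divided by the median of the optimal peaks themselves. That ratio had a median of 0.99 for bound P450 genes and 1.28 for all bound genes, whose quartiles were 0.867 and 2.12. On that scale 11 of the 22 bound P450 genes lay above the median optimal peak. Bound P450 genes exceeded the median of all bound genes in 6 of 22 cases. Median relative signal was 1.17 in Cyp6, 1.01 in Cyp9, 1.40 in Cyp4 and 0.94 in Cyp12, so Cyp9, with the highest share of bound genes among these 4 families, did not have the highest signals. Between pairs of replicates the signals of these 22 genes had Spearman rho of 0.68 (1 and 2), 0.70 (1 and 3) and 0.51 (2 and 3). These are given as a description over genes chosen for having an optimal peak in libraries of unknown depth.

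The highest P450 peak was at Cyp6u1 (2R, 6974974 to 6975295), with its summit 72 bp upstream of the start. Its relative signal was 3.93, 1.77 and 3.80 in replicates 1, 2 and 3, or 3.17 ± 1.21 (SD, n = 3). Replicate 2 was the low one, and the summit is shared with Ufsp1, the gene of a UFM1-specific protease. When a summit counted only for its nearest start site, Cyp6u1 was no longer bound. The second was at Cyp310a1 (2L, 18653386 to 18653627), 493 bp upstream and outside the gene, with 2.48, 2.01 and 2.72 (2.40 ± 0.362, n = 3). In replicates 1 and 3 only Cyp6u1 was higher among P450 genes, and in replicate 2 only Cyp4p1. Cyp310a1 and Cyp6u1 stood at ranks 1295 and 682 of the 9264 optimal peaks, and none of the other genes of the 82 stood above either.

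Among Cyp6 genes, Cyp6g1 is known for insecticide resistance, since its overexpression protects flies from DDT and neonicotinoids. Its peak lay in an intron, 677 bp downstream of the start (2R, 12186226 to 12186467), with relative signals of 2.03, 1.69 and 1.16 (1.63 ± 0.440, n = 3). Replicate 3 was lowest and all values were above 1. The neighbouring genes Cyp6g2 and Cyp6t3 (the product of which acts in ecdysteroid synthesis) had no entry of the pooled list within 1 kb. Cyp6a2, also linked to DDT resistance, had 2 summits upstream, and the higher one (2R, 6781874 to 6782027) gave 1.18, 1.02 and 0.916 (1.04 ± 0.134, n = 3). Cyp6d5 had 0.851, 1.35 and 1.11 (1.10 ± 0.249, n = 3) at a summit 29 bp upstream of its start (3R, 14028979 to 14029418). The last 2 genes had mean relative signals near 1.

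The Cyp9 family held 6 genes and 6 highest peaks. Cyp9b2 (2R, 7132734 to 7132955, 700 bp upstream) gave 1.55, 1.34 and 1.02, and its neighbour Cyp9b1 (2R, 7129853 to 7130292, 265 bp upstream) gave 0.739, 0.555 and 0.990. Cyp9b2 was higher than Cyp9b1 in each replicate. Cyp9c1 (2R, 24630827 to 24631266, 16 bp upstream) gave 1.08, 1.37 and 1.17. Cyp9h1 (2R, 12842352 to 12842791, 14 bp upstream) gave 0.519, 1.13 and 0.843. The other pair is Cyp9f3 and Cyp9f2 on 3R, with 2 summits near each start. Cyp9f3 (12398884 to 12399323, 175 bp upstream) gave 1.30, 1.38 and 0.871. Cyp9f2 (12405050 to 12405489, 758 bp downstream in an intron) gave 0.647, 0.503 and 1.06. At these peaks the pair overlapped, with Cyp9f3 higher in replicates 1 and 2 and Cyp9f2 higher in replicate 3. Taking instead each replicate's highest entry within 1 kb, Cyp9f3 had 1.30, 1.38 and 1.23 and Cyp9f2 had 0.748, 1.30 and 1.06, with Cyp9f3 higher in each replicate. Mean signals in the family ran between 0.736 and 1.31, and 4 of its 6 genes had a summit among the highest entries of every replicate, the exceptions being Cyp9b1 in replicate 2 and Cyp9h1 in replicate 1.

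The 4 bound Cyp4 genes were Cyp4p1, Cyp4ac1, Cyp4ad1 and Cyp4d20, and all 4 had a summit among the highest entries of every replicate. Cyp4p1 had its summit 30 bp inside the gene in an untranslated exon (2R, 9239938 to 9240180), with 2.29, 2.25 and 1.17 (1.90 ± 0.633, n = 3). Replicate 3 was the low one. Cyp4ac1 (2L, 5263922 to 5264042, 26 bp upstream) gave 1.57, 1.58 and 1.59 (1.58 ± 0.0116, n = 3), the smallest spread of the 22 genes. Cyp4ad1 (2R, 8442955 to 8443113, 212 bp upstream) had 1.22 ± 0.289 and Cyp4d20 (3L, 2479109 to 2479548, 881 bp upstream) had 1.16 ± 0.220 (n = 3 each). Cyp4g1, which makes cuticular hydrocarbons in oenocytes, had no pooled entry within 1 kb, and neither had its relative Cyp4g15.

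**Figure D4:**
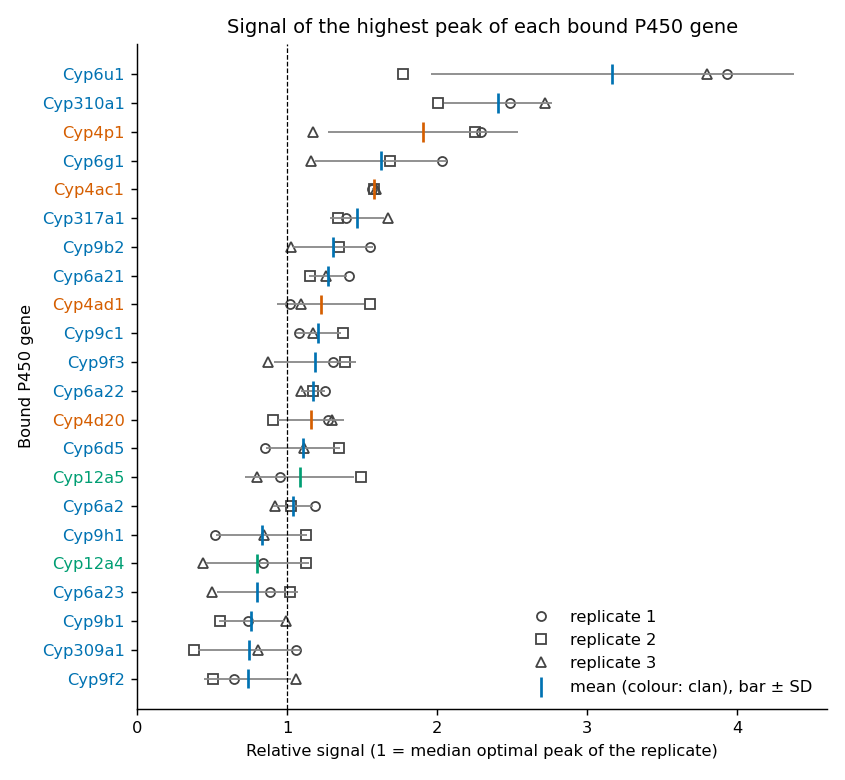
Relative signal of the highest peak of each bound P450 gene in replicates 1, 2 and 3, with the mean and SD (n = 3) and gene names coloured by clan. The dashed line marks a relative signal of 1, the median of a replicate's entries that overlap an optimal peak. The axis label calls this the median optimal peak of the replicate, which is a loose short form. Cyp6u1 and Cyp310a1 lie highest by mean, and most other genes lie between 0.7 and 1.7.

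Of the 9 mitochondrial members, the bound ones were the neighbours Cyp12a5 and Cyp12a4 on 3R, the second of which has been linked to resistance to the insect growth regulator lufenuron. Cyp12a5 (19132000 to 19132169, 569 bp upstream) gave 0.954, 1.49 and 0.801 (1.08 ± 0.364, n = 3). Cyp12a4 (19134904 to 19135343, 34 bp upstream) gave 0.836, 1.12 and 0.439 (0.800 ± 0.344, n = 3). Cyp12a5 was higher in each replicate, and both were highest in replicate 2 and lowest in replicate 3. The single-member families Cyp49 and Cyp301, the second known for a role in cuticle formation, had no pooled entry within 1 kb. Cyp12b2 and the pair Cyp12d1-p and Cyp12d1-d had none either. The last 2 are near-identical copies, so reads could be split between them or lost, and their absence from the list is uncertain. Whether reads were split or lost was not tested. A summit ranked 5573 lay inside Cyp12d1-p, 2025 bp from its start. Cyp12e1 had an entry below the threshold (rank 14567 of 30000 in the pooled list), with relative signals of 0.199, 0.370 and 0.895.

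Cyp12c1 on 3L was listed differently by the replicate and the pooled lists. It had an entry in every replicate, with the summit 210, 254 and 307 bp upstream of its start and ranks 4285, 5394 and 7096 in replicates 1, 2 and 3. The relative signals were 1.29, 1.10 and 0.878 (1.09 ± 0.207, n = 3), the level of Cyp12a5. The pooled list had 0 entries within 3 kb of it, and so had the optimal list. Over all genes, 3094 had a summit among the highest entries of all 3 replicates. Of these 65 were not bound and 40 had no pooled entry within 1 kb. For P450 genes the corresponding numbers were 18 genes and 1 not bound, which is Cyp12c1. The cause was not tested.

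The largest P450 cluster is a run of 9 genes on 2R (14871366 to 14903095) with 8 Cyp6a genes and Cyp317a1. Binding there was uneven: Cyp6a22, Cyp6a23, Cyp6a21 and Cyp317a1 were bound, and Cyp6a17, Cyp6a19, Cyp6a9, Cyp6a20 and Cyp6a8 were not. Cyp6a22 (summit 379 bp upstream, shared with Pcf11, which encodes a transcription termination factor) had 1.25, 1.17 and 1.09. Cyp6a21 (96 bp upstream) had 1.41, 1.15 and 1.26. Both were above 1 in each replicate. Cyp6a23 (16 bp upstream) had 0.883, 1.02 and 0.497, the lowest of the 4 in each replicate, at optimal rank 8693. Cyp317a1 had 1.39, 1.34 and 1.67, at 2 summits matched to the same replicate entries, the higher one in an intron and 73 bp upstream of the nearer of its 2 start sites. Cyp6a17, known for a role in temperature preference, stands between Cyp6a22 and Cyp6a23, and its entry below the threshold had 0.208, 0.459 and 0.786. Cyp6a20, linked to male aggression, shares an entry of rank 12170 with Cyp6a9, at 0.541, 0.600 and 0.453.

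**Figure D5:**
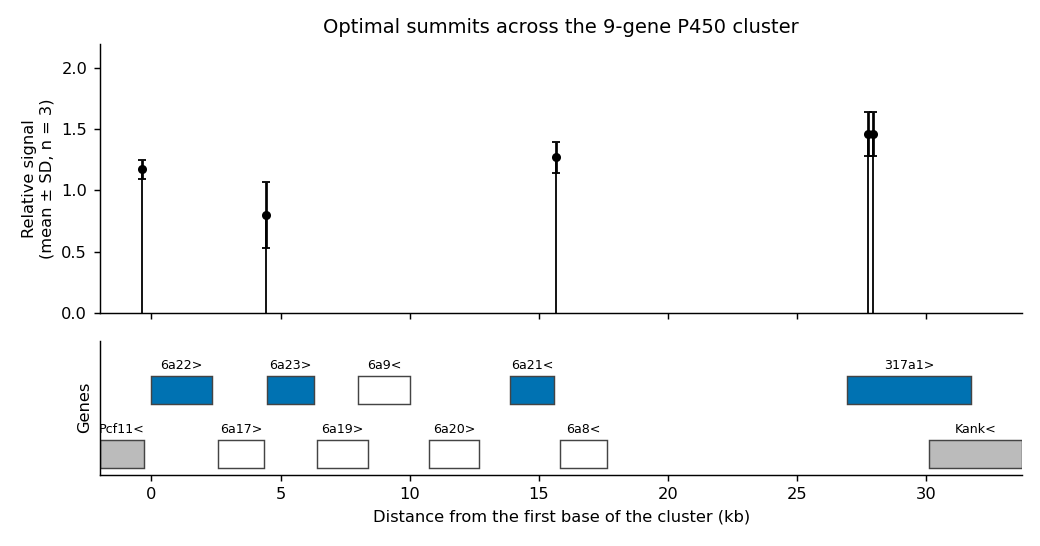
Optimal summits over the 9-gene cluster, with the mean relative signal and SD (n = 3) above and the genes below, bound genes filled, unbound ones open and genes of other families in grey. The 5 summits stand at 4 of the 9 genes and the other 5 have none within 1 kb of a start site.

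Several smaller clusters likewise held 1 bound gene beside unbound neighbours. One of 3 genes was bound in the Cyp4ac cluster, in the cluster of Cyp4ad1, Cyp4e2 and Cyp4e1, in the Cyp4p cluster and in that of Cyp6g1, Cyp6g2 and Cyp6t3. All genes were bound in the pairs Cyp9b, Cyp9f and Cyp12a, and none in the Cyp313a trio, the Cyp4d14, Cyp4d2 and Cyp4ae1 trio on X, and the pairs Cyp28d, Cyp12d1, Cyp6a14 and Cyp6a13, Cyp316a1 and Cyp4d8, and Cyp311a1 and Cyp318a1. In clusters, defined by gaps of at most 10 kb between genes, 15 of 45 P450 genes were bound (33.3%), against 7 of 37 that stand alone (18.9%) and 27.5% of all genes. In the replicates' own entries the gap was narrower, with 32.6% ± 1.28 in clusters and 24.3% ± 2.70 alone (SD, n = 3 lists). Leaving out the 9-gene cluster, 18 of 73 P450 genes and 12 of 29 clan 3 genes were bound. By arm, bound P450 genes numbered 13 of 34 on 2R, 5 of 16 on 3R, 3 of 13 on 2L and 1 of 6 on 3L. On X it was 0 of 13, where 26.2% of all genes were bound.

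Of the 60 unbound P450 genes, 25 had an entry of the pooled list within 1 kb of a start site, and 35 had none. In all, 47 of 82 P450 genes (57.3%) had such an entry, against 42.1% of all protein-coding genes, and among them were 19 of 23 Cyp6 genes and 0 of 6 Cyp313 genes. The 5 unbound genes with the highest entries below the threshold were Cyp6a13 (rank 9920), Cyp28a5 (10232), Cyp6v1 (11066) and, shared, Cyp6a9 and Cyp6a20 (12170). Just past the threshold, Cyp6a13 had relative signals of 0.583, 0.616 and 0.578 at a summit 37 bp inside the gene. The lowest bound gene by rank, Cyp6a23, averaged 0.799 ± 0.271 (n = 3). Replicates 1 and 2 of Cyp6a23 lay above all replicates of Cyp6a13, while its replicate 3 lay below them. An optimal summit lay between 1 and 2 kb from a start site of 6 unbound genes, Cyp6a14, Cyp4e2, Cyp6a17, Cyp6a8, Cyp6a19 and Cyp6a13, of which 5 belong to the Cyp6a subfamily. With a window of 2 kb, 34.1% of P450 genes had a summit, against 33.2% of all genes. The summits near Cyp4e2, Cyp6a17, Cyp6a19 and Cyp6a8 were the highest peaks of the bound neighbours Cyp4ad1, Cyp6a23 and Cyp6a21. Cyp6a13 and Cyp6a14 shared a summit of rank 9063. Of the unbound genes, Cyp309a2 and Cyp12d1-p had an optimal summit inside the gene. Over all protein-coding genes, 2.92% were unbound with such a summit, and these are 2 of the 82 P450 genes. That in Cyp309a2 is the peak upstream of Cyp309a1, whose start lies next to the end of Cyp309a2, at 1.06, 0.379 and 0.805. In 8 unbound genes at least 1 replicate had a summit among its highest entries.

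Genes taken to work with P450 enzymes formed 3 further lists, chosen by function. Of 6 genes listed as redox partners 5 were bound, against 27.5% of all protein-coding genes. Cyt-b5-r is counted among them, though a role in electron transfer to P450 enzymes was not checked for it. Cpr, the cytochrome P450 reductase that serves the microsomal enzymes, had 3.24, 3.55 and 2.95 (3.25 ± 0.303, n = 3), with its mean above that of each of the 22 bound genes of the 82. Cyp6u1 was nevertheless higher than Cpr in replicates 1 and 3 (3.93 and 3.80). Cyt-b5-r had 2.34 ± 0.533 and Cyt-b5 had 1.52 ± 0.138 (n = 3 each). Of the ferredoxin genes that serve mitochondrial enzymes, Fdx2 had 1.37 ± 0.145 and Fdx1 had 0.583 ± 0.353 (n = 3 each), and the ferredoxin reductase gene dare was not bound. Fdx1 had a summit among the highest entries of only 1 replicate. The summits of Cyt-b5, Cyt-b5-r and Fdx2 are shared with other genes. Of 4 xenobiotic regulator genes 2 were bound. Of these cnc, which encodes CncC, had 4.75, 5.00 and 3.73 (4.49 ± 0.674, n = 3), higher by mean than each of the 22 bound genes of the 82, though below Cyp6u1 in replicate 3. Keap1, whose product holds CncC back, had 2.60 ± 0.807 (n = 3), at a summit shared with kuk. The genes of the CncC partner maf-S and of the nuclear receptor Hr96 were not bound. cnc has 10 annotated start sites and Cpr has 4, so they had more windows than a typical P450 gene.

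The P450 genes of ecdysteroid synthesis and breakdown have their own names and lie outside the symbol rule. Of 7, only shd was bound, against 27.5% of all protein-coding genes. A list of 7 genes is too small to set its share apart from that. The product of shd is the 20-hydroxylase that makes the active hormone. The shd peak gave 4.85, 5.35 and 4.23 in replicates 1, 2 and 3 (4.81 ± 0.559, n = 3). That was higher by mean than any of the 22 bound genes of the 82. The shd summit lay upstream of the nearest start site, beyond 500 bp but within 1 kb. The synthesis genes spo, spok, phtm, dib and sad were not bound, and neither was Cyp18a1, which breaks the hormone down. Of the P450 pseudogenes, Cyp6a15Psi had its nearest optimal summit 632 bp away and Cyp6t2Psi 19629 bp away.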

How the data were processed

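Chromatin immunoprecipitation peaks were measured in 1 group of 3 biological replicates. Per the labels, the sonicated chromatin was 200 to 800 bp long. The aligner, the peak caller and the threshold on the irreproducible discovery rate were not given in the sources used here. Per the note files, the deposited replicate lists and the pooled list (30000 entries each) were input to that step, and it gave the optimal list of 9264 peaks, identical to the top 9264 pooled entries by signal. The deposited signal column is not scaled between libraries. It was divided by the median of each replicate's entries that overlap an optimal peak (68.6, 38.9 and 65.4 in replicates 1, 2 and 3). A replicate's entry was matched to an optimal peak by an overlap of at least 1 bp, and the highest such entry was used. The deposited −log10 q values entered no result. The lists hold no read counts, so depth is unknown and no counting interval is given for signal.

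Coordinates are dm6, 1-based. Start sites (19607 of 13945 genes) came from Ensembl release 115, product names and bases from RefSeq, in which all 84 symbols matched. Clans follow the usual grouping of insect families. Genes named are all bound and all mitochondrial members, unbound members with an optimal summit 1 to 2 kb away or inside the gene, the 5 unbound members with the highest entries below the threshold, and the lists of redox partners, regulators and ecdysteroid genes. Other unbound genes named were chosen after their values were seen. The members and lists were chosen with earlier results of these data known. The search for summits and words was tested on simulated data. Alternatives were other windows, start sites, overlaps, scalings and peak sets, and leaving out each replicate. Python 3.11.15, NumPy 2.4.6, pandas 2.3.3 and matplotlib 3.10.9 were used.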

Additional observations from a re-analysis of the deposited data

How the results depend on the processing

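The count of 22 bound P450 genes was 17 with a window of 500 bp (20.7%, against 23.0% of all genes), 28 with 2 kb (34.1%, against 33.2%), 20 when a summit counted only for its nearest start site (24.4%, against 21.6%, with Cyp6u1 and Cyp6a22 lost), and 22 with RefSeq start sites or with any base of a peak. With the stronger 50% of optimal peaks it was 11 (13.4%, against 18.2%). The P450 share thus lay on either side of the background. That setting gave 0 mitochondrial, 11 microsomal, 4 Cyp6, 1 Cyp9, 0 Cyp12 and 7 clan 3 genes, with shares for Cyp9 (16.7%) and clan 3 (18.4%) near the background. With 500 bp, 1 mitochondrial and 1 Cyp12 gene were left, and with 2 kb there were 12 Cyp6 genes. The optimal list was made from all 3 replicates. Leaving out a replicate meant keeping only peaks of that list that overlapped the highest entries of both others, so counts could not rise. That gave 18 to 19 P450 genes (22.0% to 23.2%, against 22.1% to 23.5% of all genes). By compartment it gave 1 to 2 mitochondrial (1 without replicate 1, 1 without replicate 2) and 17 to 18 microsomal genes. By family it gave 4 Cyp4, 6 to 7 Cyp6, 4 to 5 Cyp9 and 1 to 2 Cyp12 genes (1 without replicate 1, 1 without replicate 2). By clan it gave 13 to 14 clan 3 and 4 clan 4 genes. Clan 3 stayed above clan 4 in share under every alternative run. The median relative signal of 1.18 ran between 1.11 and 1.22 with a replicate left out, and was 2.80 when scaled to all entries and 83.3 as a rank percentile, which are other scales. Requiring 1 of the 9264 highest entries in every replicate, an alternative chosen after seeing the data, gave 18 genes (22.0%, against 22.2% of all genes). It lost Cyp309a1, Cyp9b1, Cyp9h1, Cyp6a23 and Cyp12a4 and gained Cyp12c1. No paired analysis was possible because there is 1 group. Depth is unknown, so a gene without a peak is not shown to be unbound.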
